A study of Mus musculus with 36 samples.

Results

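Ifnb1 encodes interferon beta, and its single row was followed through all 12 groups of an RNA sequencing study of mouse dendritic cells. It was 1 gene of the 24127 in the deposited table, chosen by name. Tests were run on 11853 genes whose normalized counts averaged 10 or more, and Ifnb1 was one of them. The cells were bone marrow cells of C57BL/6 background cultured with GM-CSF and purified by CD11c, from LGP2 knockout mice (Dhx58-/-, called KO) or from wild-type mice (WT). Cells of either genotype received 20 ng of PAMP RNA by transfection, or were left as time-matched mock cells, and were collected at 1, 3 and 6 h. The agonist is a poly-U/UC RNA of hepatitis C virus that is recognised by the sensor RIG-I. Each of the 12 groups had 3 libraries: KO with PAMP, KO mock, WT with PAMP and WT mock at each time, 36 in all. The labels call them biological triplicates that were plated for each condition, so p-values measure the spread between wells, which may have shared 1 culture. No group had LGP2 put back, and the labels give neither the age nor the number of the animals.

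Interferon beta is a secreted type I interferon that warns neighbouring cells of viral RNA. RIG-I, once bound to RNA, acts through the adaptor MAVS and the kinases TBK1 and IKK epsilon to activate the factors IRF3 and NF-kB, which bind side by side at the Ifnb1 promoter. The secreted protein binds the receptor IFNAR on the same and on neighbouring cells and turns on interferon-stimulated genes, among them Irf7 and Dhx58 itself. LGP2 is a relative of RIG-I that binds RNA but lacks the domains that signal to MAVS.

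In GRCm38 the gene lies on the minus strand at chr4:88522025-88522774, with 1 exon of 750 bases and no intron. Its coding sequence of 546 bases encodes 182 amino acids. The 204 annotated bases that follow the last coding codon hold the letters ATTTA 4 times, a pentamer common in short-lived cytokine mRNAs. The promoter is shown because motifs of some factors whose mRNAs are described further on can be sought in its letters. The 125 bases below are from RefSeq (GRCm38.p6, chr4:88522866-88522990, minus strand, printed 5′ to 3′), and 71 bases lie between the last letter and the RefSeq start. Capitals mark matches to 3 motifs. The core bound by IRF factors was searched as AANNGAAA. The NF-kB motif was searched as GGGANNTTC. The TATA box was searched as TATAAA.

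Ifnb1 promoter: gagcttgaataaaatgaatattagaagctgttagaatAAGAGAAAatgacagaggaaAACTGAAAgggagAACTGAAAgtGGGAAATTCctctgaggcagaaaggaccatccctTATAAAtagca

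The 3 IRF core matches began 159, 139 and 126 bases before the start, and the NF-kB match covered bases 116 to 108 before it. None of these 4 matches overlapped another. Of 32851 promoters in the RefSeq table, read over 250 bases before the start on both strands, 21.3% held AANNGAAA and 0.849% held it at least 3 times. GGGANNTTC was found in 3.23% of them, and 254 promoters (0.773%) held both motifs. TATAAA was found in 12.4%, and it matched at 2 places in the Ifnb1 window, at 82 to 77 bases before the start and, outside the printed stretch, at 210 to 205. TGANNTCA, 1 form of the element bound by ATF and Jun factors, was in 11.9% of promoters and had no match in the Ifnb1 window. Other forms were not searched, so this does not show that the promoter lacks such an element. All 13 promoters of Ifna genes in the table held AANNGAAA, 2 held TATAAA and 0 held GGGANNTTC. A match is a description of letters, not a bound site.

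Libraries held 4740909 to 14255730 reads in genes, with a median of 8159886. Values are DESeq-normalized counts, reads divided by 1 size factor per library. Of 8 dendritic cell markers, 7 exceeded a mean of 10 in every group, Itgax (CD11c) averaging 2509 to 3354, while Flt3 averaged 2.58 to 17.5. Markers of plasmacytoid dendritic cells, a cell type known for high interferon output, were uneven. Siglech had 15 reads in all libraries together and Ly6d had 0, while Cox6a2 averaged at most 3.94 and Klk1 at most 2.27 normalized counts per group. Pacsin1 averaged 81.4 to 234 and Ccr9 3.75 to 74.7. Summed, the 6 markers were thus almost only Pacsin1 and Ccr9. They came to 262 to 296 in KO and 304 to 329 in WT cells with PAMP RNA at 6 h. In mock cells at 6 h they came to 141 to 174 in KO and 162 to 198 in WT libraries. Their part in the induction of Ifnb1 was not tested. Summed normalized counts of the neutrophil markers were 101 to 222 per library, and T, B and NK cell markers each summed to at most 18.8. Dhx58, the targeted gene, was higher in KO than in WT mock cells at each time, with no overlap. Its reads in mock cells thus do not show the labelled loss. It averaged 147, 451 and 722 normalized counts in KO mock cells at 1, 3 and 6 h, against 93.6, 132 and 307 in WT mock cells. With PAMP RNA it averaged 156, 595 and 935 in KO cells, against 98.3, 1477 and 3005 in WT cells. GENCODE annotates an antisense gene, Dhx58os, over part of Dhx58, and unstranded reads there cannot be assigned to either. Its part in these values was not tested. Which part was deleted is not stated in the labels, so counts over the whole gene cannot check the genotype. KO and WT below therefore mean libraries labelled so.

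PAMP RNA switched Ifnb1 on from nearly no reads in either genotype, and it was high by 1 h. The 18 libraries with PAMP RNA held 619 to 1581 Ifnb1 reads each and 18447 together. The 18 mock libraries held 21 reads together, with at most 3 in any library and 0 in 7 of them.

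With PAMP RNA for 1 h, Ifnb1 had 965, 978 and 925 normalized counts in KO cells, against 544, 616 and 553 in WT cells. At 3 h it had 1099.9, 967 and 1401 in KO cells, against 879, 900.2 and 928 in WT cells. At 6 h it had 1788, 1681 and 1878 in KO cells, against 1387, 1211 and 1262 in WT cells. At each of the 3 times every KO library was above every WT library, and the gap was narrowest at 3 h, where the lowest KO library and the highest WT library were close. KO libraries at 3 h also varied most among themselves. Their coefficient of variation was 19.2%, against 3.22% that counting alone would give, while the other 5 PAMP groups had 2.72% to 7.04%.

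**Figure D1:**
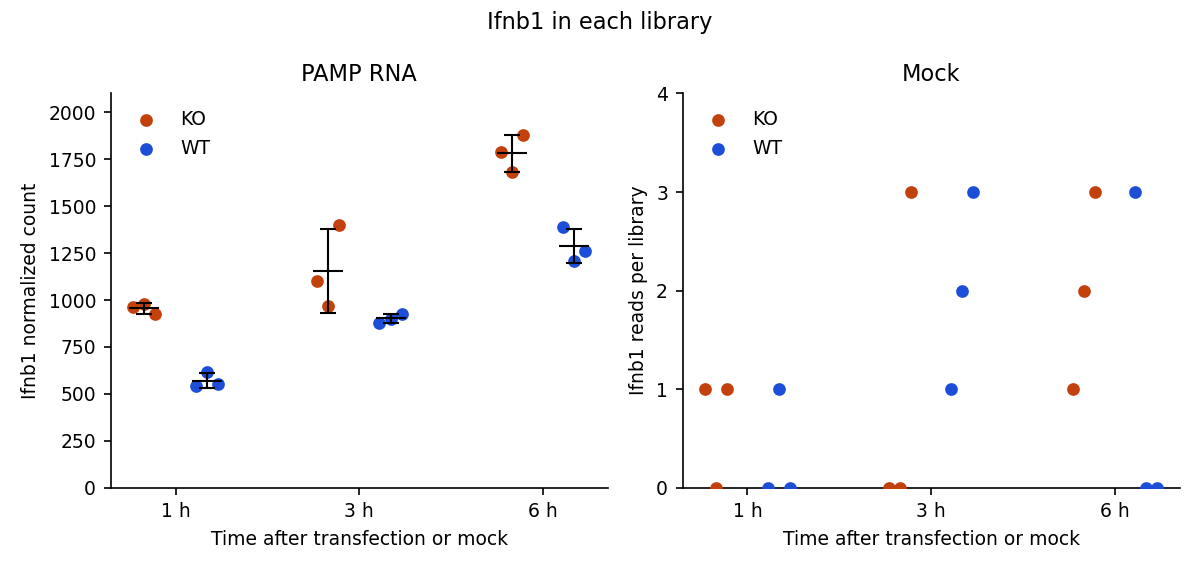
Ifnb1 in each library at 1, 3 and 6 h (horizontal axis), KO left of WT. The left panel shows normalized counts with PAMP RNA, with 1 point per library and the mean ± SD in black. The right panel shows reads per mock library. With PAMP RNA the KO points lie above the WT points at each time, and no mock library holds more than 3 reads.

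In mock cells the reads were 1, 0 and 1 in KO and 0, 1 and 0 in WT at 1 h. They were 0, 0 and 3 in KO and 1, 2 and 3 in WT at 3 h, and 1, 2 and 3 in KO and 3, 0 and 0 in WT at 6 h. KO and WT mock libraries overlapped at every time. Summed over times, KO mock cells had 11 reads, or 0.142 per 1e6 reads in genes (exact 95% Poisson interval 0.0710 to 0.255), and WT mock cells had 10 reads, or 0.128 per 1e6 reads (0.0615 to 0.236). These intervals cover counting error only. At this depth no genotype difference in uninduced Ifnb1 was detectable.

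The level reached with PAMP RNA was high among all genes. Per kilobase of annotated exon, Ifnb1 ranked 217, 241 and 196 from the top in KO cells at 1, 3 and 6 h, and 420, 330 and 273 in WT cells, of 11328 genes with a length. A length is the union of all exons that GENCODE annotates for a gene. It may differ from the gene models behind the deposited counts, and the ranks depend on it. Ordered by mean normalized count, the PAMP groups ran from 571 ± 38.9 (WT, 1 h) through 902 ± 24.5 (WT, 3 h), 956 ± 28.1 (KO, 1 h), 1156 ± 222 (KO, 3 h) and 1287 ± 90.6 (WT, 6 h) to 1782 ± 98.6 (KO, 6 h), each SD over 3 libraries. In that order WT at 3 h overlapped KO at 1 h, KO at 1 h overlapped KO at 3 h, and KO at 3 h overlapped WT at 6 h. WT at 1 h lay below all other PAMP groups and KO at 6 h above them. The first of these overlaps depends on the scaling: per 1e6 reads in genes, KO libraries at 1 h had 133.3 to 139.5 and lay above WT libraries at 3 h, which had 108.6 to 115.1.

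Because mock libraries held so few reads, the size of the induction is known only within wide bounds. Pooled over libraries and scaled by size factors, the ratio of PAMP to mock in KO cells was 1728 at 1 h (95% counting interval 478 to 14277). It was 1429.6 at 3 h (489 to 6936) and 1036 at 6 h (475 to 2823). In WT cells the ratio was 1835 at 1 h (329 to 72518), 628 at 3 h (288 to 1711) and 1450.1 at 6 h (496 to 7035). All 6 intervals overlap, and the mock reads behind them number 1 to 6 per group.

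On the scale log2(normalized count + 1), limma fitted across all genes gave responses of 9.33, 9.60 and 9.40 in KO cells at 1, 3 and 6 h and of 8.83, 8.53 and 9.72 in WT cells, each with an SE of 0.34. Ifnb1 passed limma's test in all 6, with Benjamini-Hochberg adjusted p-values of 6.96e-29 to 4.03e-25. Its mock groups averaged 0.321 to 1.74 normalized counts, so Ifnb1 met the filter on low values only through its PAMP groups. It therefore had to differ from mock, and these p-values are not separate support for the induction. At 1 h it was 1 of 141 genes that rose in KO cells (1.19% of those tested) and 1 of 95 in WT cells (0.801%). At 3 h the share of genes that rose was 23.8% in KO cells and 19.6% in WT cells, and at 6 h it was 35.1% and 32.1%. No other tested gene had a larger rise in any of the 6 responses. A log2 value with a pseudocount understates the change of a gene that starts near 0.

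The study set KO cells against WT cells to ask how the loss of LGP2 alters the answer to a RIG-I agonist. With PAMP RNA, Ifnb1 was higher in KO cells by a log2 difference of 0.74 at 1 h, 0.34 at 3 h and 0.47 at 6 h, with an SE of 0.34 in the fit to all 36 libraries. As ratios of mean normalized counts these were 1.67, 1.28 and 1.39. In that fit none of the 3 differences passed: limma's adjusted p was 0.199, 0.523 and 0.342. The shares of all genes called were 9.15%, 22.1% and 24.0%. The SE of that fit rests on 1 spread for all groups. The pooled SD of Ifnb1 on the log2 scale was 0.131 within the PAMP groups and 0.728 within the mock groups, where 1 read more or less moves the value, and limma used 0.415.

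Fitted to the 18 PAMP libraries alone, a setting added after the data had been seen, the differences were the same, with an SE of 0.08. Their limma adjusted p-values were 5.38e-09, 0.00129 and 1.81e-05, in a fit that called 8.83%, 21.5% and 23.1% of genes. On the recovered reads, edgeR's quasi-likelihood test gave 0.74, 0.37 and 0.47, with adjusted p-values of 6.24e-10, 0.000338 and 3.18e-06, and called 10.3%, 22.3% and 21.4% of genes. DESeq2 gave 0.75, 0.37 and 0.47, with adjusted p-values of 1.59e-13, 0.000766 and 4.26e-06, and called 8.97%, 19.8% and 19.4%. A single time with 3 libraries against 3 cannot go below an exact permutation p of 0.10 (two-sided), which each time reached. Over all times together, with libraries exchanged between genotypes only within a time, the mean log2 difference was 0.52 and the exact two-sided permutation p was 0.00025, the smallest that 8000 relabellings can give. The 3 h value leaned on 1 library: without KO PAMP replicate 3 at 3 h it was 0.19 in the fit to all libraries. The value over all times was then 0.47.

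**Figure D2:**
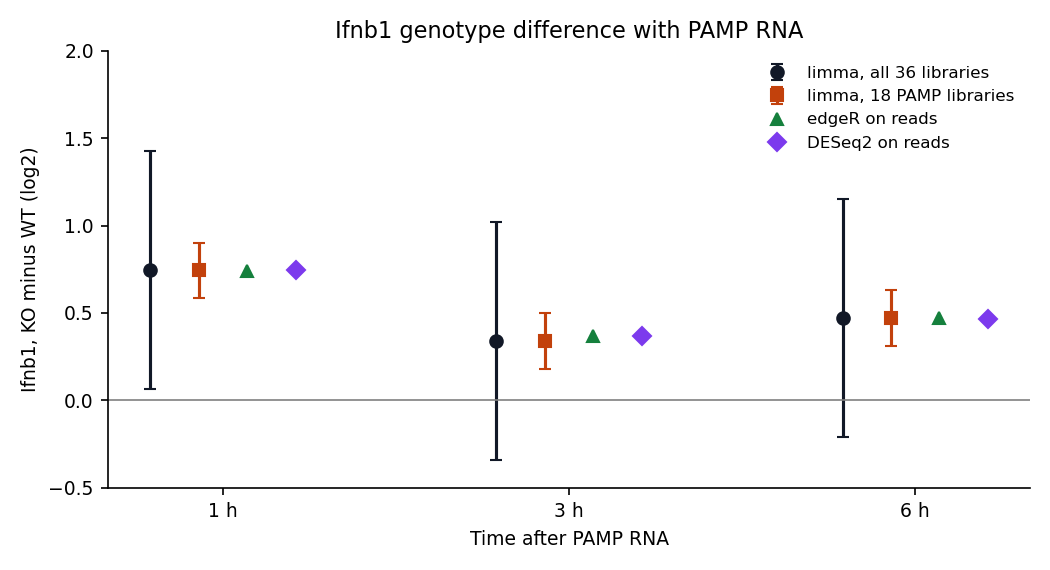
Log2 difference of Ifnb1, KO minus WT, with PAMP RNA at 1, 3 and 6 h, from 4 fits. Bars are 95% intervals of the limma fits, and edgeR and DESeq2 are shown as estimates alone. The estimates lie between 0.34 and 0.75, while the interval of the fit to 36 libraries includes 0 at 3 and 6 h and that of the fit to 18 libraries stays above 0.

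Summed counts of cell type markers differed with genotype too, in mock cells as well as with PAMP RNA. Each sum is weighted to its most abundant genes. Over the 12 groups, means were 13865 to 23884 for Cd74, 6002 to 14430 for H2-Aa and 4608 to 11188 for H2-Ab1. They were 3081 to 11277.5 for Ccr7 and 2509 to 3354 for Itgax. Among macrophage markers Csf1r had the highest means, 3960 to 10167. Single markers were not compared between genotypes. The summed normalized counts of 8 dendritic cell markers, which include class II antigen presentation genes, ranged over 34377 to 35058 in KO cells and 47841 to 52911 in WT cells with PAMP RNA at 1 h. At 6 h they ranged over 52696 to 53021 in KO cells and 67759 to 69057 in WT cells. For 5 macrophage markers the ranges were 10018 to 10282 in KO cells and 8420 to 9175 in WT cells at 1 h, and 11506 to 12186 in KO cells and 9380 to 11111 in WT cells at 6 h. In mock cells the dendritic cell markers ranged over 32977 to 36069 in KO and 50014 to 51814 in WT libraries at 1 h. Their ranges at 6 h were 41355 to 42379 in KO and 56872.5 to 58977 in WT mock libraries. The macrophage markers ranged over 10274 to 10867 in KO and 9284 to 9665 in WT mock libraries at 1 h. These were 14341 to 15001 and 13299 to 13741 at 6 h. The part of cell type markers in the Ifnb1 difference was not tested. In such bulk samples more Ifnb1-producing cells and more Ifnb1 mRNA per cell cannot be told apart.

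The same question asked of the responses, each against its own mock cells, gave no call. The KO response minus the WT response was 0.50 at 1 h, 1.07 at 3 h and -0.32 at 6 h, with an SE of 0.48 and limma adjusted p-values of 1.00, 0.297 and 0.746. At 1 h edgeR gave 0.09 and DESeq2 0.03. With 1 library left out at a time the value ranged over 0.17 to 0.66 at 1 h and over -0.93 to -0.02 at 6 h. The mock groups behind these values held 1 to 6 reads each. Without KO mock replicate 3 at 3 h, which held all 3 reads of its group, the 3 h value was 1.63, with a limma adjusted p of 0.0340. The sign at 6 h turned with the pseudocount, being 0.24 when 5 was added in place of 1. The shares of all genes called in these comparisons were 0.118%, 3.14% and 10.5%.

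Ifnb1 rose over time under PAMP RNA in both genotypes in the fit to PAMP libraries and in both count tests. The first step in KO cells depended on the scaling. The step to 3 h was 0.26 in KO cells and 0.66 in WT cells on the log2 scale, and the step to 6 h was 0.64 in KO cells and 0.51 in WT cells, each with an SE of 0.34. In the fit to 36 libraries limma's adjusted p was 0.537 and 0.0946 for the first step in KO and WT cells, and 0.0996 and 0.200 for the second. In the fit to the 18 PAMP libraries, limma's adjusted p was 0.00528 and 3.50e-09 for the first step and 7.98e-09 and 9.12e-07 for the second. In the fit to 36 libraries the first step called 58.0% of all genes in KO cells and 55.0% in WT cells, and the second 59.8% and 56.0%. In the fit to PAMP libraries these shares were 56.3%, 53.5%, 58.2% and 54.5%, so a call by itself sets Ifnb1 little apart. Without WT mock replicate 1 at 6 h, which held all 3 reads of its group, the first step in WT cells and the second in KO cells passed in the fit to the other libraries, with limma adjusted p-values of 0.0448 and 0.0485. Without KO PAMP replicate 3 at 3 h the first step in KO cells was 0.11. With quantile normalization of all libraries that step was 0.046. Replicates at 3 h in KO cells overlapped those at 1 h, and no other pair of successive times overlapped within a genotype.

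The first step was smaller in KO cells than in WT cells by a log2 difference of -0.40. Its limma adjusted p was 0.704 with 36 libraries (6.49% of genes called) and 0.0181 with the 18 PAMP libraries (7.33% called). edgeR gave -0.37 with an adjusted p of 0.0319 (7.14% called), and DESeq2 gave an adjusted p of 0.0566 (6.02% called). For the second step the difference was 0.13, with a limma adjusted p of 0.934 (1.49% of genes called). Read per 1e6 reads in genes, Ifnb1 averaged 136.9, 136.8 and 171.9 in KO cells at 1, 3 and 6 h, and 81.8, 111.9 and 133.7 in WT cells. With libraries scaled to equal totals, the first and second steps were -0.016 and 0.34 on the log2 scale in KO cells and 0.45 and 0.25 in WT cells.

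Among type I interferons, Ifnb1 held most of the deposited counts at 1 and 3 h and the other genes at 6 h. Counted per kilobase over 15 type I interferon genes with a length, Ifnb1 made up 70.9% ± 0.429 at 1 h, 59.1% ± 1.83 at 3 h and 26.8% ± 1.18 at 6 h in KO cells. In WT cells its share was 75.3% ± 0.737, 67.1% ± 0.693 and 32.8% ± 0.923 (SD, n = 3 libraries each). In both genotypes the libraries of each later time had lower shares than all libraries of the time before. At each time every KO library had a lower share than every WT library. The mean log2 difference of the share, KO minus WT over the 3 times, was -0.19, with an exact two-sided permutation p of 0.00025 over relabellings within a time. The other 14 genes together had 524, 1059 and 6493 normalized counts per kilobase in KO cells at 1, 3 and 6 h, against 251, 590 and 3523 in WT cells. These sums and shares depend on how reads common to near-identical Ifna genes were counted, which the labels do not state. They depend too on the annotated lengths, which were 1032 bases for Ifna2 and 561 for Ifna4.

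**Figure D3:**
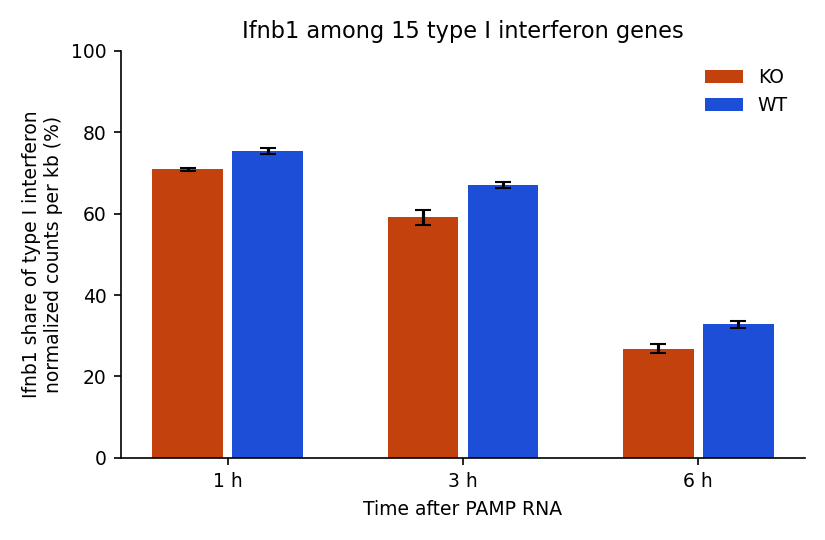
Ifnb1 as a percentage of the normalized counts per kilobase of 15 type I interferon genes, at 1, 3 and 6 h of PAMP RNA, KO left of WT. Bars are means and lines are SD over 3 libraries. The share goes from 70.9% to 26.8% over time in KO cells and from 75.3% to 32.8% in WT cells.

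Ifna4, an alpha gene known to be made early, had the profile closest to that of Ifnb1 by Pearson correlation. By rank correlation Ifna4 ranked 1 over 36 libraries and 27 over the 18 PAMP libraries. Its level per kilobase relative to Ifnb1 was 0.245 ± 0.0174 at 1 h, 0.359 ± 0.0248 at 3 h and 0.552 ± 0.0420 at 6 h in KO cells, against 0.197 ± 0.0141, 0.290 ± 0.00659 and 0.483 ± 0.0178 in WT cells (SD, n = 3 each). The mean log2 difference of this ratio, KO minus WT, was 0.27, with an exact two-sided permutation p of 0.00025. In normalized counts, Ifna4 averaged 175 ± 9.22 in KO cells and 84.3 ± 10.4 in WT cells at 1 h. Ifna genes are near-identical copies, and how the authors' counting treated shared reads is not stated in the labels. Single Ifna values, their sums and their ratios to Ifnb1 are therefore uncertain.

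Of 27 interferon genes in the table other than Ifnb1, 10 had enough reads to be tested. They rose with PAMP RNA in 6, 8 and 10 of 10 cases in KO cells at 1, 3 and 6 h and in 4, 8 and 10 in WT cells, and 0 fell. Over all genes, 1.19%, 23.8% and 35.1% rose in KO cells and 0.801%, 19.6% and 32.1% in WT cells. In KO against WT cells with PAMP RNA, 5 of 10 were higher at 1 h (3.85% of all genes were higher), 4 at 3 h (12.7%) and 4 at 6 h (13.7%), and 0 were lower. Their median log2 difference was 0.97, 0.93 and 1.05, beside 0.01, 0.01 and 0.02 over all tested genes. Ifna5, a further alpha gene, was higher in KO cells at all 3 times, by 1.01, 0.95 and 0.80 on the log2 scale. In the KO response minus the WT response, 0 of the 10 were called at any time, beside 0.118%, 3.14% and 10.5% of all genes. A gene that is silent in mock cells passes the filter on low values only through its PAMP groups, so these 10 had to differ from mock.

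Most sensors of viral RNA and kinases were called later than Ifnb1. Of 19 genes of RNA sensing and kinases, 1 rose at 1 h in either genotype, and it was Ifih1, the sensor MDA5. Over all genes, 1.19% rose at 1 h in KO cells and 0.801% in WT cells. At 3 h, 12 rose and 3 fell in KO cells, where 23.8% of all genes rose and 26.9% fell. In WT cells 10 rose and 2 fell, where 19.6% of all genes rose and 22.0% fell. Ddx58, the sensor RIG-I, rose by 3.58 on the log2 scale in KO cells and 3.57 in WT cells at 3 h, but its 1 h values were 0.10 and 0.06. Mavs, the adaptor, fell by 0.61 and 0.49 at 3 h in KO and WT cells. Ifnb1 had reached its first high level at 1 h, at a time when the mRNA of Tbk1, the kinase of IRF3, had log2 values of 0.07 in KO cells and 0.10 in WT cells.

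With PAMP RNA, 2 of these 19 genes were higher in KO than in WT cells at 1 h, Dhx58 itself and Mavs. At 3 h 8 were higher and at 6 h 7. In turn 1, 1 and 2 were lower at the 3 times, Dhx58 among them at 3 and 6 h. Of all genes, 3.85%, 12.7% and 13.7% were higher and 5.30%, 9.41% and 10.3% were lower. Ifih1 was higher by 0.53 at 3 h and 0.46 at 6 h, and Tbk1 by 0.27 and 0.41. At 1 h the difference was 0.74 for Ifnb1, 0.20 for Ddx58 and 0.18 for Ifih1, and none of these passed in the fit to all libraries. Mavs was higher by 0.29 at 1 h. These differences include any already present in mock cells. In the KO response minus the WT response, 0, 1 and 4 of the 19 were larger in KO cells and 0, 1 and 1 smaller. Of all genes 0.118%, 3.14% and 10.5% differed in response at the 3 times.

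Most factors of the promoter were called later than Ifnb1. Of 15 listed, 3 rose at 1 h in KO cells (Irf1, Jun and Prdm1) and 1 in WT cells (Jun), beside 1.19% and 0.801% of all genes. At 6 h, 13 rose and 1 fell in KO cells, where 35.1% of all genes rose and 36.5% fell, and 10 rose and 2 fell in WT cells, where 32.1% rose and 33.3% fell. Irf7, which carries the later wave of alpha interferon, had log2 responses of 5.80 and 6.52 in KO cells at 3 and 6 h and of 6.19 and 5.65 in WT cells. Irf3, the factor held ready in resting cells, fell by 0.28 at 3 h in KO cells and by 0.25 at 6 h in WT cells, and its other 4 responses, -0.08 to 0.15, did not pass. In KO against WT cells, 0 of 15 were higher at 1 h, when 3 were lower, and 7 were higher at 3 h and 7 at 6 h. Of all genes, 3.85%, 12.7% and 13.7% were higher at the 3 times and 5.30% were lower at 1 h. The NF-kB subunit gene Nfkb1 was lower by 0.20 at 1 h and higher by 0.17 and 0.16 later.

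Listed brakes on the pathway numbered 13 tested genes, and 2 of them rose at 1 h in either genotype, Tnfaip3 (A20) and Nfkbia (the NF-kB inhibitor). At that time 1.19% of all genes rose in KO cells and 0.801% in WT cells. Tnfaip3 rose by 0.98 in KO cells and 0.41 in WT cells at 1 h. With PAMP RNA, 0, 2 and 4 of the 13 were higher in KO cells at 1, 3 and 6 h, and 1, 0 and 1 were lower. Over all genes 3.85%, 12.7% and 13.7% were higher and 5.30%, 9.41% and 10.3% lower. Of 15 factors that bind or degrade short-lived mRNAs, 1 rose at 1 h in either genotype. This was Zfp36 (tristetraprolin, which binds AU-rich elements), by 0.90 in KO cells and 0.49 in WT cells. With PAMP RNA Zfp36 was lower in KO cells by 0.17 at 1 h and higher by 0.15 at 3 h. Of the 15 factors, 0, 6 and 5 were higher and 2, 1 and 1 were lower in KO cells at 1, 3 and 6 h, to be read against the same shares of all genes.

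**Figure D4:**
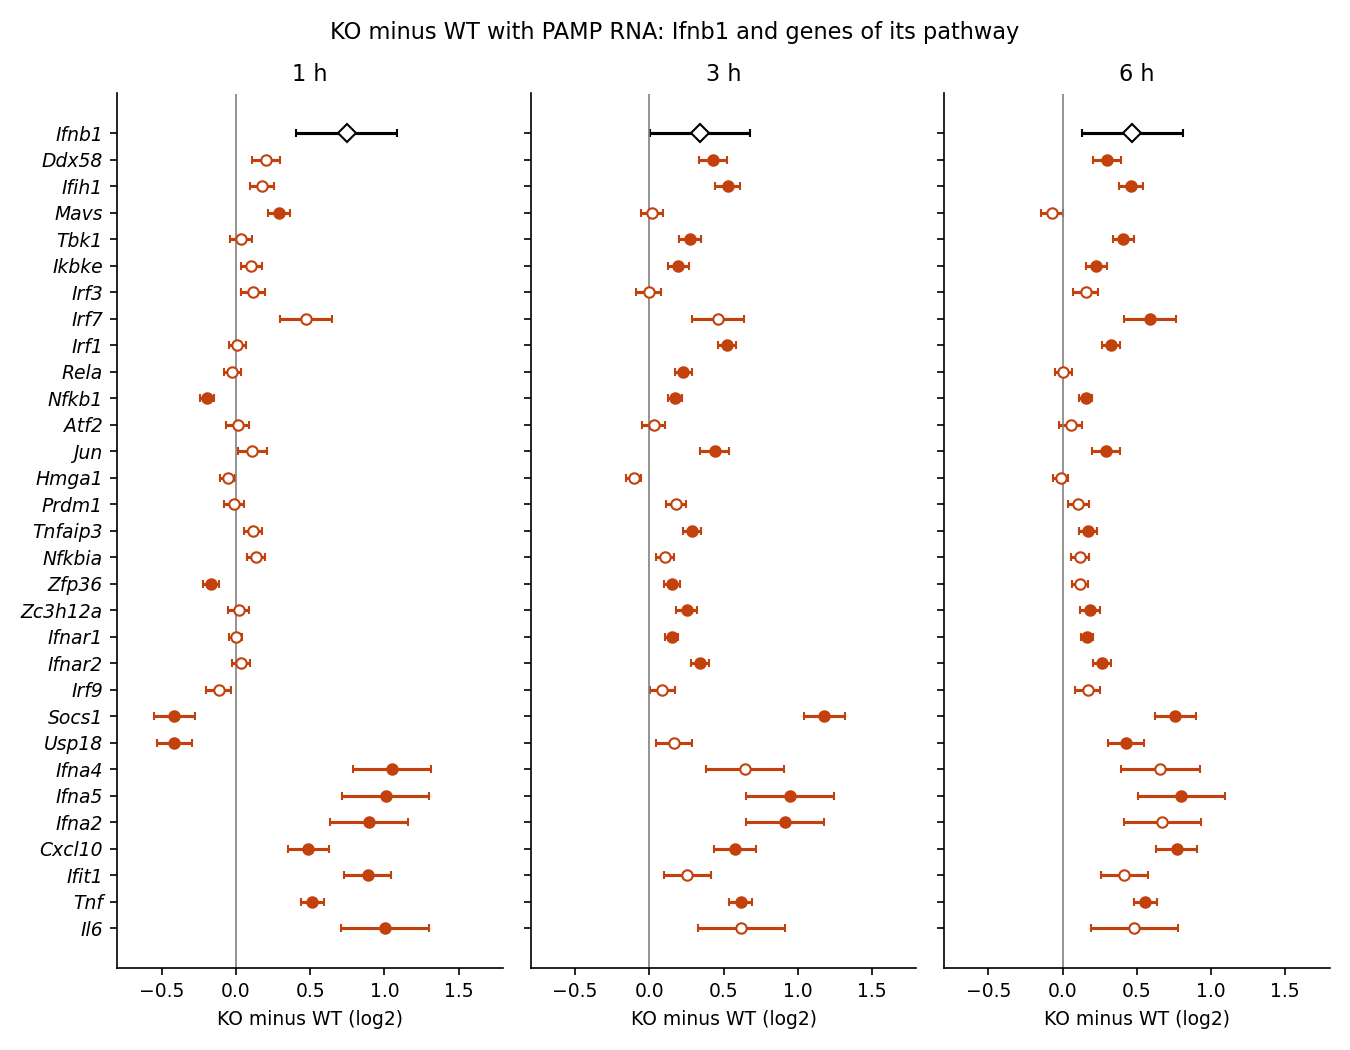
Log2 difference, KO minus WT, with PAMP RNA at 1, 3 and 6 h (panels left to right) for Ifnb1 (black diamond) and 30 genes of its pathway, with bars of 1 SE from the fit to 36 libraries. Filled circles passed limma's test at an adjusted p under 0.05 and open symbols did not. The Ifna genes, Il6 and Ifit1 lie near or right of Ifnb1 at 1 h, while most sensors and promoter factors lie near 0 there.

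Genes of the receptor and its feedback were mostly called from 3 h on. Of 12 such genes, 1 rose at 1 h in either genotype, and it was Socs3. All 12 rose at 3 and 6 h in KO cells, and 8 and 12 rose in WT cells. Over all genes, 1.19%, 23.8% and 35.1% rose at 1, 3 and 6 h in KO cells, and 0.801%, 19.6% and 32.1% in WT cells. The direction of the receptor genes turned with scaling. At 6 h in WT cells Ifnar1 and Ifnar2 were higher than in mock cells by 0.28 and 0.23 with the deposited size factors, but had log2 values of -0.10 and -0.14 with libraries scaled to equal totals. Socs1, which blocks the receptor's kinases, had responses of 6.13 and 5.38 in KO cells at 3 and 6 h and of 5.05 and 4.55 in WT cells. With PAMP RNA, Socs1 was lower in KO cells by 0.42 at 1 h and higher by 1.18 and 0.76 later, and Usp18, a further brake on the receptor, was lower by 0.42 at 1 h and higher by 0.43 at 6 h. Over the list, 0, 8 and 9 of 12 were higher in KO cells at 1, 3 and 6 h and 2, 0 and 0 were lower. Of all genes, 3.85%, 12.7% and 13.7% were higher and 5.30%, 9.41% and 10.3% lower.

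Most genes that IRF3 or NF-kB can turn on without interferon were called by 1 h. Of 12 such genes, 11 rose at 1 h in each genotype and 12 at 3 and 6 h. Over all genes, 1.19%, 23.8% and 35.1% rose at 1, 3 and 6 h in KO cells, and 0.801%, 19.6% and 32.1% in WT cells. The median response of the 12 genes was 2.75 in KO cells and 1.85 in WT cells at 1 h, and 6.32 and 6.17 at 3 h. With PAMP RNA, 8, 6 and 7 were higher in KO cells at the 3 times in turn, and 1, 1 and 0 were lower. Of all genes, 3.85%, 12.7% and 13.7% were higher and 5.30%, 9.41% and 10.3% lower. Tnf, an NF-kB target, was higher in KO cells by 0.51, 0.62 and 0.56. Ifit1, an antiviral gene that IRF3 can turn on, was higher by 0.89 at 1 h and did not pass later, with 0.25 and 0.41. Il6 was higher by 1.00 at 1 h and did not pass at 3 h (0.62) or 6 h (0.48).

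The median log2 difference, KO minus WT with PAMP RNA at 1, 3 and 6 h, was 0.51, 0.39 and 0.43 for these 12 genes. It was 0.02, 0.16 and 0.07 for RNA sensing and kinases and -0.01, 0.18 and 0.15 for promoter factors. For mRNA decay factors it was 0.02, 0.14 and 0.12, and for the receptor and its feedback -0.06, 0.22 and 0.25. The median of the brakes was -0.01, 0.0031 and 0.07, beside 0.01, 0.01 and 0.02 over all tested genes. In the KO response minus the WT response, 4, 2 and 7 of these 12 genes were larger in KO cells. For promoter factors these counts were 0, 4 and 7 of 15, and for the receptor list 0, 3 and 9 of 12. For brakes they were 2, 0 and 3 of 13, and for decay factors 1, 3 and 1 of 15. Of these lists only the brakes held a smaller response, 1 at 6 h. Of all genes 0.118%, 3.14% and 10.5% differed in response.

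The genes whose profile was most like that of Ifnb1 were sought by Pearson correlation on the log2 scale. Over 36 libraries, Ifna4 was first (0.99), followed by Phlda1, Ppp1r15a, 2900060B14Rik and Fam71a (each 0.97), Ifna5 and Il6 (0.96), and Tnf, Ifna2 and Egr1 (0.95). In all, 21 genes exceeded 0.9. These points share their treatment, so a gene switched on by PAMP RNA scores high. Over the 18 PAMP libraries alone, Ifna4 (0.98) and Tnf (0.96) led, followed by Cd200r4, Nfkbiz, Pira6, Optn, Rab1 and Lrp4 (each 0.94) and Itgb2 and Naip7 (0.93), and 91 genes exceeded 0.9. Ifna4 and Tnf were in both lists. By rank correlation 3 and 2 of the 10 genes were again among the first 10. Mavs ran against Ifnb1 at -0.73 over 36 libraries.

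No tested neighbour on chromosome 4 outside the interferon family had a response near that of Ifnb1. Of the 10 nearest such genes on each side, all 20 were in the table and 13 were tested. At 1 h 0 of 13 passed in either genotype. At 6 h, 3 rose and 4 fell in KO cells, where 35.1% of all genes rose and 36.5% fell. In WT cells 3 rose and 3 fell, where 32.1% of all genes rose and 33.3% fell. The neighbours had log2 responses of -0.56 to 1.86 in KO cells and -0.69 to 1.76 in WT cells. The nearest of them, Hacd4, lies 83097 bases away and fell by 0.39 and 0.30 at 6 h in KO and WT cells. Klhl9, a substrate adaptor of a ubiquitin ligase, lies 195518 bases away on the other side and fell by 0.50 and 0.28. Mllt3, a chromatin reader gene 488661 bases away, rose by 1.86 in KO cells and 1.76 in WT cells. Median responses of the 13 genes at 6 h were -0.05 in KO cells and -0.13 in WT cells, beside -0.03 and -0.02 over all genes.

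**Figure D5:**
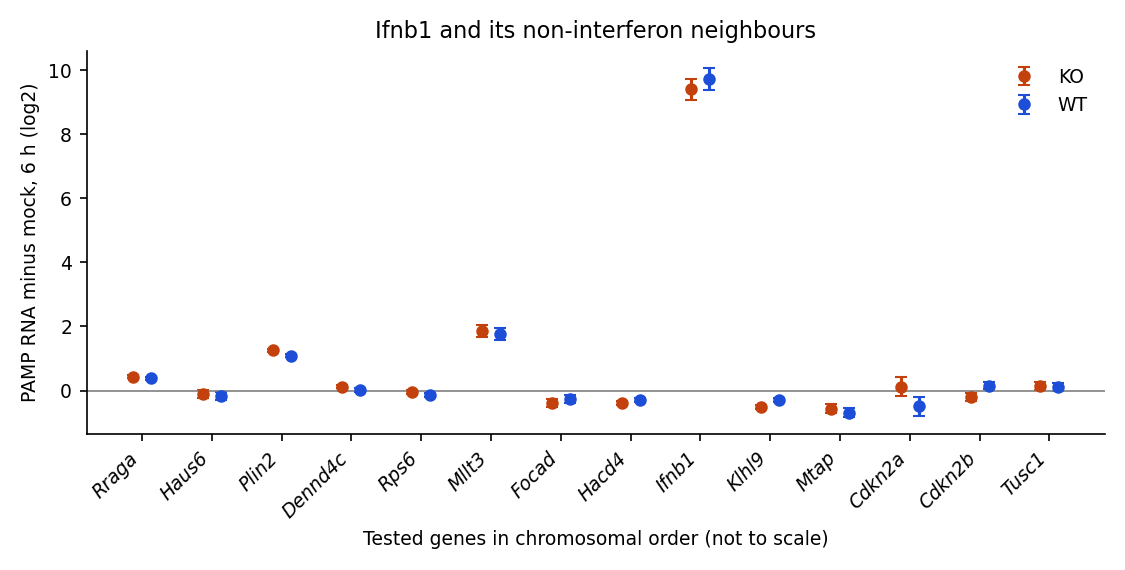
Log2 response to PAMP RNA at 6 h (PAMP minus mock) for Ifnb1 and the 13 tested neighbours outside the interferon family, in chromosomal order and not to scale, KO left of WT. Bars are 1 SE. Ifnb1 stands at 9.40 in KO cells and 9.72 in WT cells, while its neighbours lie between -0.69 and 1.86.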

How the data were processed

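RNA was sequenced as unstranded single reads from 36 libraries. Per the submitters' processing notes, TopHat, Cufflinks and DESeq2 were used with GRCm38 (mm10). What each tool did, its version and the gene models are not given in the labels. The authors deposited a normalized signal per gene, obtained by dividing reads by 1 size factor per library. Dividing by the value of 1 read gave whole numbers for 100% of values within 0.01, so whole reads were recovered. Of 24127 genes, 4887 had no read.

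Values were tested as log2(normalized count + 1) with limma 3.58.1 (R 4.3.3, mean-variance trend) over 12 group means and the 11853 genes with a mean of at least 10, with Benjamini-Hochberg adjustment and a threshold of 0.05. Equal-time differences between genotypes were also tested by exact permutation. edgeR 4.0.16 and DESeq2 1.42.0 served as alternatives on recovered reads and called between 9 and 8364 genes a comparison. Only the limma test of KO minus WT with PAMP RNA at 6 h was tried on simulated counts. Those held no gene that was near 0 in mock groups and high with PAMP RNA, as Ifnb1 is. The gene, the 7 pathway lists and the panel of 31 pathway genes plus Dhx58 were chosen with earlier results of these data known. One panel gene is not reported here. Named genes are the rest of the panel, the 10 genes most like Ifnb1 and tested neighbours. Equal replicate numbers did not pair libraries.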

Additional observations from a re-analysis of the deposited data

Results flagged for a closer look

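Named pathway genes whose response differed between the genotypes (KO response minus WT response, limma over 36 libraries, adjusted p under 0.05) are given on the log2 scale. Ifnb1 was not among them. At 1 h these were Tnfaip3 (0.56), Nfkbia (0.52), Zfp36 (0.42), Cxcl10 (1.30) and Tnf (0.81), all with the larger response in KO cells. In mock cells at 1 h these 5 genes had lower means in KO than in WT libraries, with 728 against 995 normalized counts for Tnfaip3, 1101 against 1446 for Nfkbia, 1045 against 1571 for Zfp36, 13.0 against 23.5 for Cxcl10 and 406 against 502 for Tnf. With PAMP RNA at 1 h Tnfaip3 and Nfkbia did not pass between genotypes, Zfp36 was lower in KO cells, and Cxcl10 and Tnf were higher. At 3 h they were Irf1 (0.40), Zfp36 (0.38) and Socs1 (1.08), with the larger response in KO cells, and Dhx58 (-3.07), with the smaller. At 6 h they included the sensor and kinase genes Ifih1 (0.67) and Tbk1 (0.41) and the promoter factors Irf7 (0.86), Irf1 (0.42) and Nfkb1 (0.19). The brakes and decay factor Tnfaip3 (0.27) and Zfp36 (0.33) also had the larger response in KO cells at 6 h. So did Ifnar1 (0.22), Irf9 (0.41), Socs1 (0.83) and Usp18 (0.94) of the receptor list and Cxcl10 (1.17), Ifit1 (0.75) and Tnf (0.59). Dhx58 again had the smaller response in KO cells (-2.93).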

How the results depend on the processing

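The 6 responses of Ifnb1 passed under all alternatives, which changed the pseudocount, the filter, the scaling, the test, the replicate block or the libraries. The differences with PAMP RNA kept their sign except as named here, but their calls depended on the fit. A pseudocount of 5 gave KO minus WT values of 0.74 at 1 h and 0.47 at 6 h (adjusted p = 0.000371 and 0.0167 by limma) and steps of 0.66 (WT, 1 to 3 h), 0.64 (KO, 3 to 6 h) and 0.51 (WT, 3 to 6 h) that passed. The fit to PAMP libraries gave 0.74, 0.34 and 0.47 for KO minus WT, 0.26 and 0.64 for the KO steps, 0.66 and 0.51 for the WT steps and -0.40 for their first difference, and all passed. edgeR gave 0.74, 0.37 and 0.47, with steps of 0.28 and 0.63 (KO), 0.65 and 0.53 (WT) and -0.37. DESeq2 gave 0.75, 0.37 and 0.47, with steps of 0.29 and 0.64 (KO) and 0.66 and 0.53 (WT). With a pseudocount of 5 the 6 h difference of responses was 0.24, and the KO step to 3 h was -0.016 with equal totals. With equal totals KO minus WT was 0.75, 0.27 and 0.36.

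With libraries left out in turn, KO minus WT ranged over 0.71 to 0.80, 0.19 to 0.46 and 0.43 to 0.53 at the 3 times, and over 0.47 to 0.56 for all times (exact permutation p 0.00025 to 0.0005). The response difference at 3 h ranged over 0.73 to 1.63, the WT step to 3 h over 0.63 to 0.72 and the KO step to 6 h over 0.52 to 0.79. Replicate numbers did not pair libraries: same-numbered libraries correlated at a median of 0 (-0.11 to 0.18 over 198 pairs), and 12 of 36 were closest to their own number. With the replicate block KO minus WT was 0.74, 0.34 and 0.47 (limma adjusted p = 0.193, 0.518 and 0.337), and no Ifnb1 call changed.

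Pathway genes near 0 turned with scaling. With quantile normalization, PAMP minus mock was -0.23 (KO, 3 h) and -0.16 (WT, 3 h) for Hmga1, and for Ifnar1 -0.22 and -0.12 in KO and -0.10 and -0.20 in WT cells at 3 and 6 h. With equal totals it was, at 3 h, -0.14 for Hmga1, -0.17 for Zc3h12a and -0.14 for Ifnar1 in KO and -0.042 for Ifnar1 in WT cells. At 6 h it was -0.019 for Rela, -0.19 for Prdm1, -0.036 for Zc3h12a, -0.15 for Ifnar2 and -0.11 for Dhx58 in KO and -0.30 for Prdm1, -0.043 for Zc3h12a, -0.10 for Ifnar1 and -0.14 for Ifnar2 in WT cells. Equal totals moved the median gene to -0.28 and -0.51 in KO and -0.20 and -0.39 in WT cells at 3 and 6 h. Of 17376 other values of pathway genes, 16969 kept direction and call, 246 lost and 142 gained a call, and of 7602 counts of listed genes 299 moved by over 1.5 times. Calls at 3 h in KO minus WT were 1505 higher and 1115 lower, but 896 and 1832 with equal totals and 1101 and 1275 with quantiles; at 6 h they were 1627 and 1221, but 749 and 2463, and 855 and 1202. Responses that rose and fell in KO cells numbered 2817 and 3183 at 3 h and 4162 and 4332 at 6 h, but with equal totals 1765 and 6736, and 1999 and 7883. In WT cells they were 2322 and 2603, and 3803 and 3951, but with equal totals 1607 and 5366, and 1942 and 7402. Response differences called 14 genes at 1 h (9 by edgeR and 9 by DESeq2) and 372 at 3 h (242 with quantiles), and the second step's genotype difference called 177 (94 by edgeR, 88 by DESeq2). The causes were not tested. Depth limits the mock level of Ifnb1, at 0 to 3 reads a library.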
